A study of Mus musculus with 4 samples.

Results

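The miR-17/92 cluster is a group of 6 miRNA hairpins that lie side by side on mouse chromosome 14. Its members were taken by name from the table of small RNA-seq values and comprised 10 mature arms of 1907 mature miRNAs listed: mmu-miR-17-5p, mmu-miR-17-3p, mmu-miR-18a-5p, mmu-miR-18a-3p, mmu-miR-19a-3p, mmu-miR-20a-5p, mmu-miR-20a-3p, mmu-miR-19b-3p, mmu-miR-92a-3p and mmu-miR-92a-1-5p (the prefix for mouse is left out below). Small RNA was sequenced from E14Tg2A, a single mouse embryonic stem (ES) cell line of 129/Ola origin, and from epiblast-like aggregates (ELA) grown from it. ES cells (day 0) were kept either in 10% fetal calf serum with 1000 U/mL leukemia inhibitory factor (LIF), called serum here, or in 2iL. The latter is a serum-free medium with 1 µM of the MEK inhibitor PD0325901, 3 µM of the GSK3 inhibitor CHIR99021 and 1000 U/mL LIF. ELA were collected at day 2, after growth as floating aggregates in a chemically defined minimal medium without LIF, so ELA serum and ELA 2iL are named after the medium of the ES cells they came from. Each of the 4 groups was 1 library, made from RNA pooled from 3 sets of experiments. There were thus no replicates, and a stage or medium difference cannot be told apart from a difference between single libraries.

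A miRNA is cut from a hairpin in a longer transcript, and 1 arm of the hairpin (the guide) is mostly kept in the RNA-induced silencing complex, whereas the other (the passenger) is mostly lost. The bases near the 5′ end of the guide, the seed, pair with target mRNAs, so miRNAs that share a seed are grouped as a family with overlapping targets. The miR-17/92 transcript is known as a growth-promoting, MYC-activated miRNA host that restrains cell death and cell cycle inhibitors, and it is expressed in ES cells and the early embryo together with its paralogous clusters miR-106a/miR-363 and miR-106b/miR-25.

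The sequences show why the 6 hairpins fall into 4 families. All 10 arms matched the RefSeq table of mouse miRNAs (GRCm38.p6), as did 1623 of the 1907 listed names. The guides are shown first, grouped by shared seed, with the seed (bases 2 to 8 from the 5′ end) in capitals:
miR-17-5p: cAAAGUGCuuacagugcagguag
miR-20a-5p: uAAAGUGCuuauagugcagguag
miR-18a-5p: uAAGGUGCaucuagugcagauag
miR-19a-3p: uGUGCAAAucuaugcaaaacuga
miR-19b-3p: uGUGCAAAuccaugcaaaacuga
miR-92a-3p: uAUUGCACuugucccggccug

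With positions counted from 1 at the 5′ end, miR-17-5p and miR-20a-5p differed at 2 of 23 bases (C1U and C12U), and miR-19a-3p and miR-19b-3p at 1 of 23 (U11C). Neither pair differed in the seed. The 4 passenger arms among the members carried seeds that no guide of the cluster shared:
miR-17-3p: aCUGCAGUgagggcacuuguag
miR-18a-3p: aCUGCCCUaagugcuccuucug
miR-20a-3p: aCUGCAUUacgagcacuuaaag
miR-92a-1-5p: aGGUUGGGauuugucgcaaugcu

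In the paralogous cluster, miR-106a-5p lies 1 base from miR-17-5p (U10A) and miR-18b-5p 2 bases from miR-18a-5p (A18U and A20U). They are shown because reads of such near-identical relatives are told apart by these bases alone:
miR-106a-5p: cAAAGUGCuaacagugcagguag
miR-18b-5p: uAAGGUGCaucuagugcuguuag

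On mm9, the build to which the reads were mapped, the hairpins Mir17, Mir18, Mir19a, Mir20a, Mir19b-1 and Mir92-1 span 836 bp at chr14:115442893-115443728 on the plus strand. They lie within an exon (chr14:115442493-115445949) of the non-coding host gene Mir17hg (chr14:115442101-115445949). In that order the hairpins are at chr14:115442893-115442976, chr14:115443073-115443168, chr14:115443222-115443303, chr14:115443379-115443485, chr14:115443527-115443613 and chr14:115443649-115443728. Of the members, 8 have this locus only. The other 2, miR-19b-3p and miR-92a-3p, have an identical second copy in the miR-106a/miR-363 cluster on the minus strand of the X chromosome, in Mir19b-2 (chrX:50095160-50095243) and Mir92-2 (chrX:50095015-50095105), so their reads cannot be assigned to chromosome 14 from the mature sequence.

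The libraries held 587363 reads (ELA 2iL) to 8056984 reads (ES serum), and values were given as RPM, reads scaled to a library total of 1000000 reads on listed miRNAs. The smallest amount counted as detected, 3 reads, was 0.372 RPM in ES serum and 5.11 RPM in ELA 2iL. The lowest member count in any library was 110 reads, so every member was far above this floor. The 95% intervals given below cover counting error only, as no molecular identifiers were used. Of 6 fixed miRNAs of the miR-290/miR-295 cluster, markers of pluripotent cells, 4 were detected in all libraries, and miR-290a-3p and miR-292a-3p were listed at 0. Their summed level was 68951 RPM in ES serum, 150596 in ES 2iL, then 45801 in ELA serum and 116145 in ELA 2iL. ELA 2iL thus stood above ES serum. Markers of the primed epiblast (miR-302a/b/d-3p and miR-367-3p) summed to 5222 RPM in ES serum, 67.6 RPM in ES 2iL, then 32895 in ELA serum and 5549 in ELA 2iL. All 12 markers of liver, muscle, neurons, blood and fibroblasts summed to 360 to 481 RPM, with miR-122-5p and miR-142a-3p at 0 in every library. The largest part of that sum was miR-9-5p (156 to 356 RPM). The muscle marker miR-133a-3p was at 10.4 RPM in ES serum, listed at 0 in ES 2iL, and at 46.6 and 71.5 RPM in ELA from serum and 2iL. It was thus higher in ELA in both media and highest in ELA 2iL, like most arms of the cluster. The other muscle markers, miR-1a-3p and miR-206-3p, reached 1.70 and 0.464 RPM at most. By contrast, miR-124-3p, miR-199a-3p and miR-145a-5p were lower in ELA in both media. The part of any of these markers in the differences of the arms was not tested.

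The 10 arms together were a major component of the miRNA reads at both stages, and their share was highest in ELA 2iL. This total includes miR-92a-3p and miR-19b-3p, whose reads can also come from the X chromosome. Together the 10 arms took 9.18% of miRNA reads in ES serum (95% Wilson interval 9.16 to 9.20), 8.64% in ES 2iL (8.60 to 8.67), then 8.21% in ELA serum (8.19 to 8.24) and 14.2% in ELA 2iL (14.1 to 14.2). This total was carried by miR-92a-3p, which alone provided 91.8% of the cluster reads in ES serum, 86.4% in ES 2iL, and 87.5% and 75.9% in ELA from serum and 2iL. Among all miRNAs it ranked 3 in both ES libraries, then 4 in ELA serum and 2 in ELA 2iL. Without it, the other 9 arms took 0.750%, 1.17%, 1.03% and 3.41% in ES serum and 2iL and in ELA serum and 2iL. The 8 arms with a single locus took 0.553%, 0.670%, 0.625% and 1.72% in the same order. For all 10 arms the ELA over ES ratio of the share was 0.895 in serum (0.891 to 0.898) and 1.64 in 2iL (1.63 to 1.65). For the 8 single-locus arms it was 1.13 in serum (1.11 to 1.15) and 2.56 in 2iL (2.50 to 2.63). The direction in serum therefore depended on which arms were summed, and for the 10 arms it also turned with DESeq2 size factors (1.02). In 2iL both sums were higher in ELA.

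**Figure D1:**
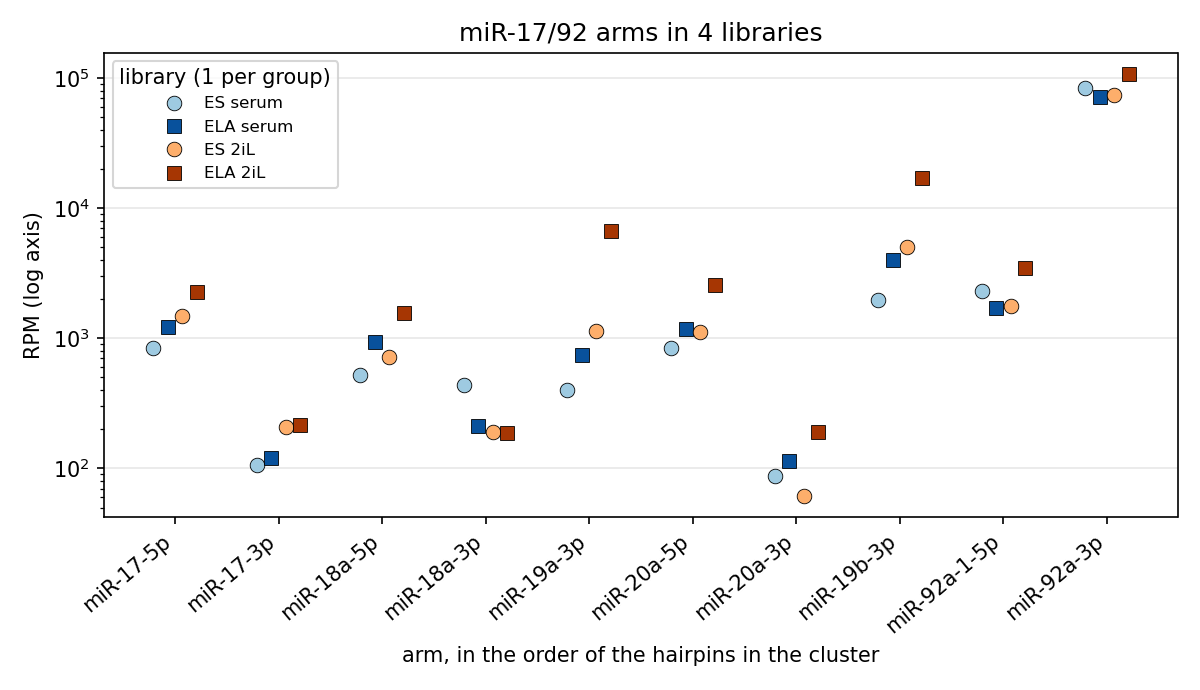
RPM of the 10 arms (log axis) in the order of the hairpins, 1 point per library for ES serum, ELA serum, ES 2iL and ELA 2iL. ELA 2iL, the dark orange square, lies highest for 9 of 10 arms, the exception being miR-18a-3p, and miR-92a-3p lies between 71866 and 107463 RPM, above every other arm.

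The order of the levels was similar at its ends and changed in the middle. miR-92a-3p was first in every library. In ES serum it was followed by its own passenger miR-92a-1-5p (2311 RPM) and by miR-19b-3p (1965 RPM), and in the other 3 libraries miR-19b-3p came second. miR-17-5p and miR-20a-5p were neighbours that did not differ beyond counting error in ES serum, where both stood at 838 RPM (ratio of miR-20a-5p to miR-17-5p 1.00, 0.966 to 1.03). miR-19a-3p moved most within the cluster, from rank 8 of 10 in ES serum to rank 5 in ES 2iL, rank 7 in ELA serum and rank 3 in ELA 2iL. Passengers of miR-17 and miR-20a were at or near the bottom throughout, and in ELA 2iL miR-20a-3p and miR-18a-3p could not be told apart at 111 and 110 reads. The arms are of nearly equal length (21 to 23 bases), so no length scaling was applied. How well the library kit captures each sequence was not measured.

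The first comparison asked how the cluster differed between ES and ELA. All 6 guides were higher in ELA when both media were averaged, by 0.15 (miR-92a-3p) to 1.71 (miR-19a-3p) on the log2 scale, with a median of 0.92. Of the 10 arms, 9 were higher in ELA (median 0.71), and 2 of them, miR-19a-3p and miR-19b-3p, by at least 1. Among the 302 expressed miRNAs (mean log2(RPM + 1) of at least 5), 47% were higher, 11.6% higher by at least 1 and 16.2% lower by at least 1 (none of the arms), with a median difference of −0.08. In limma on log2(RPM + 1), fitted over all 599 testable miRNAs, none of the 10 arms passed an adjusted p-value of 0.05. None of the 599 miRNAs did (0%), while 20.9% had an unadjusted p-value under 0.05, as did 2 of the 10 arms (miR-19a-3p and miR-19b-3p). Relative to the median of all expressed miRNAs the arms were higher by a median of 0.80, a value that another scaling of the libraries cannot alter. Without ELA 2iL, the shallowest library, only the serum difference remained, with a median over the arms of 0.44. Within serum, 7 of 10 arms were higher in ELA (50% of expressed miRNAs), 1 by at least 1 (miR-19b-3p, against 8.61%), and 1 was lower by at least 1 (miR-18a-3p, against 15.6%). Within 2iL, 9 of 10 were higher in ELA (43.7%) and 5 by at least 1 (18.9%), while none was lower by at least 1 (23.5%).

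Both guides of the miR-17 family were above their ES level in ELA. miR-17-5p, which with miR-20a-5p shares its seed with miRNAs of both paralogous clusters, stood at 838 RPM in ES serum against 1227 in ELA serum, and at 1481 in ES 2iL and 2264 in ELA 2iL. The ELA value was above the ES value in each medium, with a ratio of 1.46 in serum (1.41 to 1.52) and 1.53 in 2iL (1.44 to 1.63). The log2 difference of miR-17-5p over both media was 0.58 ± 0.44 (SE, limma adjusted p = 0.465). miR-20a-5p rested on the same seed and stood at 838 and 1179 RPM in ES and ELA serum, and at 1115 and 2566 RPM in ES and ELA 2iL. Its ratio was 1.41 in serum (1.36 to 1.46) and 2.30 in 2iL (2.16 to 2.45), with a log2 difference of 0.85 ± 0.47 (SE, limma adjusted p = 0.333). Higher values in ELA in both media, as for this pair, were met by 32.8% of expressed miRNAs.

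miR-18a-5p, the guide of a family with a seed 1 base from that of miR-17, was at 518 RPM in ES serum, 938 in ELA serum, 721 in ES 2iL and 1568 in ELA 2iL. ELA exceeded ES in either medium, 1.81-fold in serum (1.74 to 1.89) and 2.18-fold in 2iL (2.01 to 2.35). Over both media the log2 difference was 0.99 ± 0.44 (SE, limma adjusted p = 0.268).

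The miR-19 guides showed the largest averaged differences of the 10 arms. miR-19a-3p was at 403 RPM in ES serum against 737 in ELA serum, and at 1141 in ES 2iL and 6677 in ELA 2iL. The ELA 2iL library thus stood far above the other 3, which lay within a few-fold of each other. The ELA over ES ratio of miR-19a-3p was 1.83 in serum (1.74 to 1.92) and 5.85 in 2iL (5.58 to 6.14), and the log2 difference was 1.71 ± 0.58 (SE, limma adjusted p = 0.202). edgeR gave an adjusted p of 0.0502 and DESeq2 of 0.0172 for miR-19a-3p, where 6.51% and 8.35% of miRNAs were called. In limma without the filter on low counts its adjusted p was 0.0369, with 8.24% of miRNAs called, and it was 0.0303 (14.9% called) when totals left out the 5 most abundant. miR-19b-3p, which has 2 loci, was at 1965 RPM in ES serum, 4009.5 in ELA serum, 5032 in ES 2iL and 16929.9 in ELA 2iL. It followed the same order of libraries as miR-19a-3p, with ratios of 2.04 in serum (2.00 to 2.09) and 3.36 in 2iL (3.28 to 3.45). The log2 difference of miR-19b-3p was 1.39 ± 0.47 (SE, limma adjusted p = 0.202; DESeq2 adjusted p = 0.0286; edgeR adjusted p = 0.0773). In ELA 2iL, miR-19b-3p ranked 10 and miR-19a-3p 25 among all miRNAs, against 50 and 115 in ES serum.

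miR-92a-3p did not share this pattern. It stood at 84294 RPM in ES serum, 71866 in ELA serum, 74623 in ES 2iL and 107463 in ELA 2iL, so that ELA was below ES in serum and above it in 2iL. The ratios were 0.853 (0.849 to 0.856) and 1.44 (1.43 to 1.45), and the log2 difference over both media was 0.15 ± 0.47 (SE, limma adjusted p = 0.879). Its passenger miR-92a-1-5p, which has the chromosome 14 locus only, likewise had 2311 RPM in ES serum, 1724 in ELA serum, 1779 in ES 2iL and 3499 in ELA 2iL. For miR-92a-1-5p the ratio was 0.746 in serum (0.726 to 0.766) and 1.97 in 2iL (1.87 to 2.07), with a log2 difference of 0.28 ± 0.54 (SE, limma adjusted p = 0.784). A lower value in serum with a higher one in 2iL was seen in 10.9% of expressed miRNAs. For both miR-92a arms the averaged difference was above 0 through ELA 2iL, since without that library the serum differences of −0.23 and −0.42 remained.

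The 3 other passengers differed among themselves. miR-17-3p was at 107 and 119.5 RPM in ES and ELA serum, and at 209 and 216 RPM in ES and ELA 2iL. Its ELA over ES ratio was 1.12 in serum (1.00 to 1.25) and was not clear of counting error in 2iL (1.03, 0.846 to 1.25). miR-20a-3p had 86.8 RPM in ES serum, 113 in ELA serum, 61.8 in ES 2iL and 189 in ELA 2iL, which gave ratios of 1.31 (1.16 to 1.47) and 3.06 (2.39 to 3.91). miR-18a-3p was the only arm lower in ELA on average. It was at 434 RPM in ES serum against 213 in ELA serum, but at 189.7 in ES 2iL against 187 in ELA 2iL. ES serum stood apart and the other 3 libraries lay together, and the ratio was 0.492 in serum (0.457 to 0.529) and 0.987 in 2iL (0.796 to 1.21). The small 2iL difference of miR-18a-3p changed its sign under TMM, DESeq2 size factors and totals without the 5 most abundant miRNAs. The limma adjusted p-values of miR-17-3p, miR-20a-3p and miR-18a-3p were 0.910, 0.310 and 0.562.

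**Figure D2:**
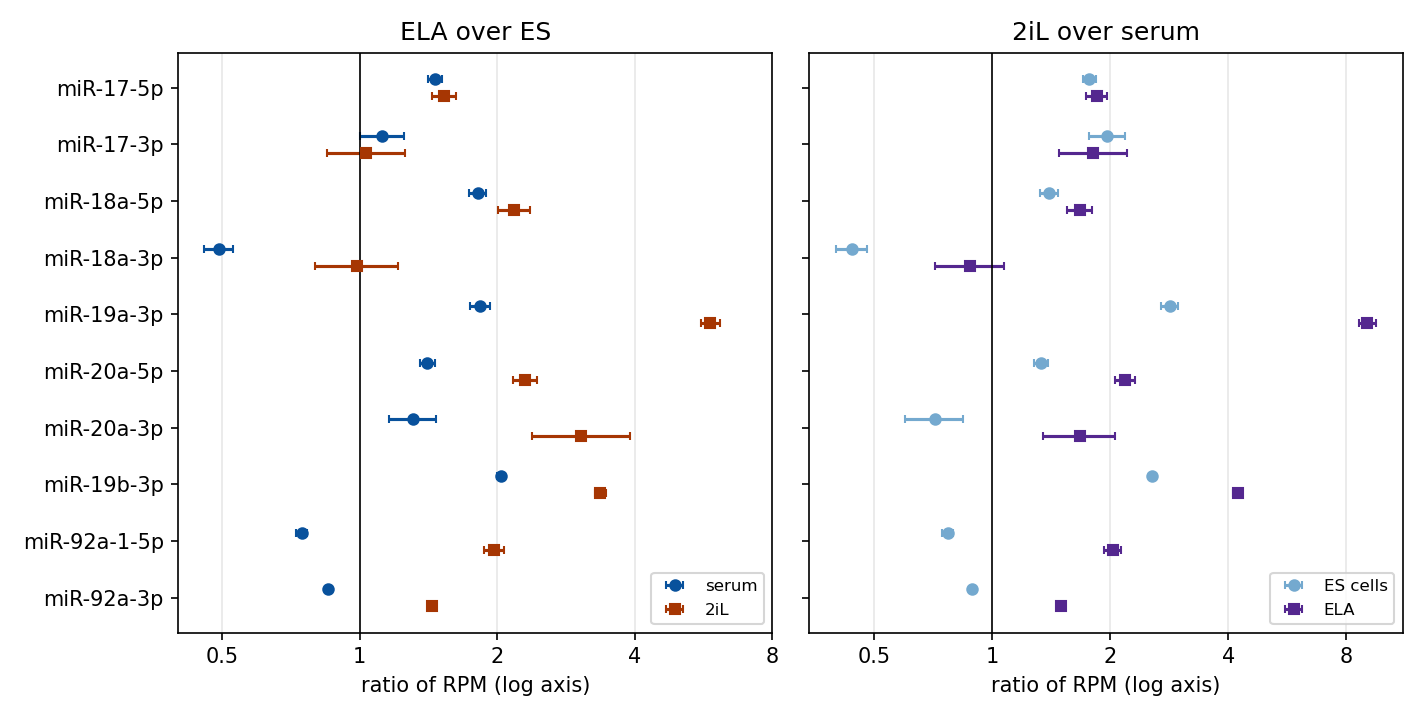
Ratio of RPM (log axis) for each of the 10 arms between ELA and ES (left; circles serum, squares 2iL) and between 2iL and serum (right; circles ES cells, squares ELA). Bars are exact 95% intervals for counting error, the line marks 1, and the ratio of miR-19a-3p reaches 5.85 on the left and 9.05 on the right.

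The second comparison asked how the cluster differed between 2iL and serum. Averaged over both stages, 9 of 10 arms were higher in 2iL (median log2 difference 0.69), 2 of them by at least 1. This stood against a general shift, since 65.2% of expressed miRNAs were higher in 2iL, 23.8% by at least 1, with a median of 0.42, and 13.2% were lower by at least 1 (none of the arms). Relative to that median the arms were higher by 0.27, and with TMM or DESeq2 size factors, which moved the median of all miRNAs to 0.00 and 0.04, 6 of 10 arms stayed above 0. The averaged differences of miR-20a-3p, miR-92a-3p and miR-92a-1-5p turned negative under those 2 scalings. Without ELA 2iL, only the difference in ES cells remained, with a median over the arms of 0.44. In limma none of the 10 arms, and 0% of the 599 miRNAs, passed an adjusted p-value of 0.05. An unadjusted p-value under 0.05 was met by 29.4% of miRNAs and again by miR-19a-3p and miR-19b-3p alone among the arms. In ES cells, 6 of 10 arms were higher in 2iL (62.9% of expressed miRNAs), 2 by at least 1 (30.8%), and miR-18a-3p was lower by at least 1 (17.5%). In ELA, 9 of 10 were higher in 2iL (65.6%), 4 by at least 1 (22.2%), and none was lower by at least 1 (8.61%).

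miR-19a-3p held the largest medium difference of the arms. It was 2.83-fold higher in 2iL than in serum in ES cells (2.70 to 2.98) and 9.05-fold in ELA (8.64 to 9.49). Its log2 difference over both stages was 2.34 ± 0.58 (SE, limma adjusted p = 0.114), with adjusted p-values of 0.0344 in edgeR and 0.00922 in DESeq2, which called 10.7% and 13.4% of miRNAs. It was 0.00115 in limma without the filter on low counts, with 10.8% of miRNAs called, and 0.00418 (18.2% called) when totals left out the 5 most abundant. The ELA ratio ranked 3 from the highest among the 302 expressed miRNAs. miR-19b-3p was 2.56-fold higher in ES cells (2.50 to 2.62) and 4.22-fold in ELA (4.12 to 4.33), and its log2 difference was 1.72 ± 0.47 (SE, limma adjusted p = 0.124). Both miR-19 guides were higher in 2iL at both stages, as were 52% of expressed miRNAs.

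Both arms of the miR-17 hairpin were also higher in 2iL at either stage. The ratio of miR-17-5p was 1.77 in ES cells (1.70 to 1.84) and 1.85 in ELA (1.74 to 1.96), and that of miR-17-3p 1.96 (1.76 to 2.18) and 1.81 (1.48 to 2.20). For miR-18a-5p the ratio was 1.39 in ES cells (1.32 to 1.47) and 1.67 in ELA (1.55 to 1.80), and for miR-20a-5p 1.33 (1.27 to 1.39) and 2.18 (2.05 to 2.31). With TMM the ES differences of miR-18a-5p and miR-20a-5p changed sign. The remaining arms were lower in 2iL than in serum in ES cells. That ratio was 0.437 for miR-18a-3p (0.398 to 0.480), 0.712 for miR-20a-3p (0.599 to 0.843), 0.885 for miR-92a-3p (0.881 to 0.890) and 0.770 for miR-92a-1-5p (0.746 to 0.794). In ELA, miR-20a-3p, miR-92a-3p and miR-92a-1-5p were higher in 2iL, with ratios of 1.67 (1.35 to 2.05), 1.50 (1.48 to 1.51) and 2.03 (1.93 to 2.13), whereas miR-18a-3p was not clear of counting error at 0.878 (0.714 to 1.07). ELA 2iL held the highest level of the 4 libraries for 9 of 10 arms, although for miR-17-3p it was within counting error of ES 2iL, and 23.2% of expressed miRNAs had their highest level there.

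Ratios between arms within a library do not depend on how libraries are scaled. The guide outnumbered the passenger in every library for each hairpin, but by a variable factor. For miR-18a, the 5p over 3p ratio was 1.19 in ES serum (1.14 to 1.25), 3.80 in ES 2iL (3.45 to 4.19), then 4.40 in ELA serum (4.09 to 4.73) and 8.37 in ELA 2iL (6.86 to 10.3). Its passenger was thus nearly as abundant as the guide in ES serum only. This range of 2.81 on the log2 scale ranked 14 from the largest among 123 hairpins with both arms measured, whose median range was 1.37. miR-18b of the paralogous cluster had 5p over 3p ratios of 1.59 in ES serum, 2.30 in ES 2iL, and 4.40 and 4.05 in ELA from serum and 2iL, so both miR-18 hairpins had their lowest ratio in ES serum. For miR-17 the ratio was 7.86 in ES serum, 7.08 in ES 2iL, then 10.3 in ELA serum and 10.5 in ELA 2iL, a range of 0.57 on the log2 scale. It was higher in ELA than in ES in both media. miR-20a had 9.66, 18.0, 10.4 and 13.6 in the same order, with its highest ratio in ES 2iL. The ratio of miR-92a-3p, with 2 loci, to miR-92a-1-5p was 36.5, 41.9, 41.7 and 30.7.

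miR-19a gave the widest range of the cluster. Its passenger miR-19a-5p, an arm outside the list of 10, was at 28.3 RPM in ES serum, 22.0 in ES 2iL, and 28.8 and 35.8 in ELA from serum and 2iL. The 3p over 5p ratio was 14.2 in ES serum (12.4 to 16.3), 51.7 in ES 2iL (40.2 to 67.8), then 25.6 in ELA serum (21.4 to 30.9) and 187 in ELA 2iL (122 to 302, on 21 passenger reads). Intervals of the 4 libraries did not overlap, and the range of 3.71 on the log2 scale ranked 3 from the largest of the 123 hairpins. The passenger itself was not clear of counting error between ELA and ES, at 1.02 in serum (0.810 to 1.27) and 1.62 in 2iL (0.938 to 2.70). The 2 arms of the miR-19a hairpin thus differed unequally between the libraries.

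**Figure D3:**
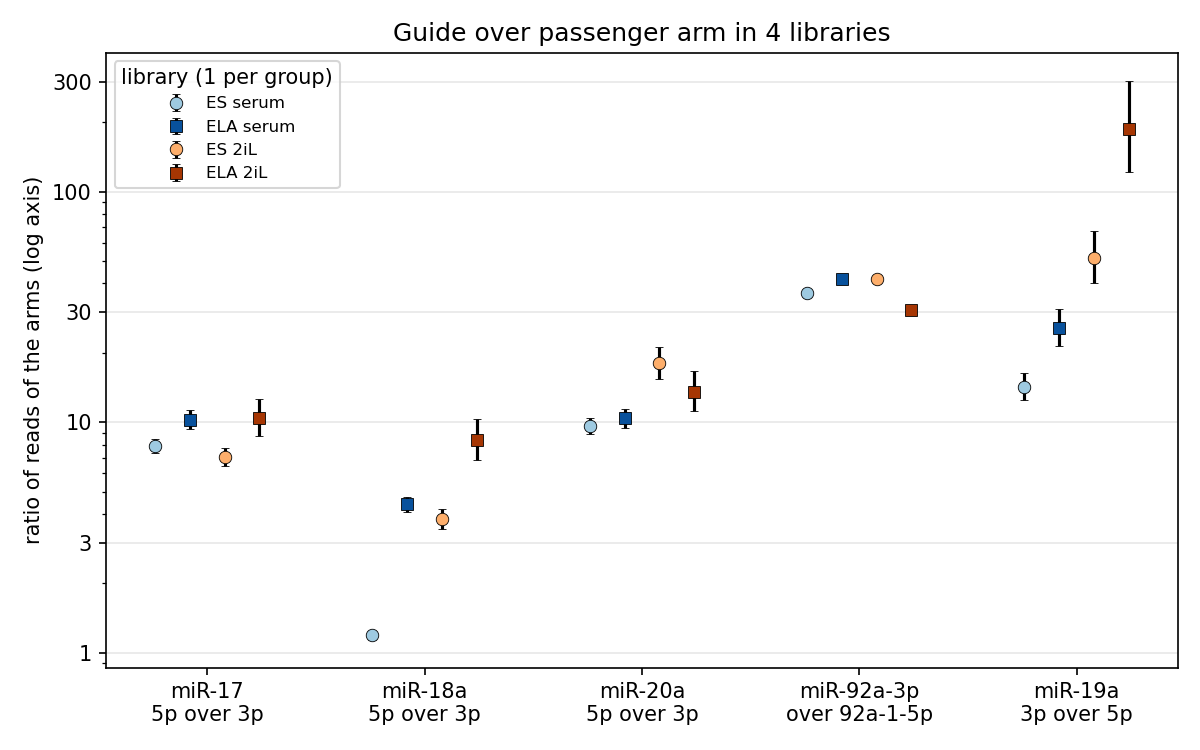
Ratio of guide to passenger reads (log axis) for 5 hairpins, 1 point per library for ES serum, ELA serum, ES 2iL and ELA 2iL, with exact 95% intervals for counting error. miR-17 stays between 7.08 and 10.5, while miR-18a runs from 1.19 to 8.37 and miR-19a from 14.2 to 187.

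The guides of the cluster are cut from 1 transcript, apart from the X copies of miR-19b-3p and miR-92a-3p, and their proportions to each other also differed between libraries. Per read of miR-17-5p there were 0.480 reads of miR-19a-3p in ES serum (0.460 to 0.501), 0.770 in ES 2iL (0.735 to 0.807), then 0.601 in ELA serum (0.575 to 0.628) and 2.95 in ELA 2iL (2.77 to 3.14). For miR-19b-3p the values were 2.34, 3.40, 3.27 and 7.48 in the same order. The ratio of both miR-19 guides to miR-17-5p was thus lowest in ES serum and highest in ELA 2iL. By contrast, miR-20a-5p stayed between 0.753 and 1.13 reads per read of miR-17-5p, and miR-18a-5p between 0.487 and 0.765. miR-92a-3p took the opposite course, with 101 reads per read of miR-17-5p in ES serum, 50.4 in ES 2iL, then 58.6 in ELA serum and 47.5 in ELA 2iL. Between the miR-19 guides, the ratio of miR-19b-3p to miR-19a-3p was 4.88 in ES serum, 4.41 in ES 2iL, and 5.44 and 2.54 in ELA from serum and 2iL, although these differ by 1 base.

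The arms also differed in base composition. The share of G and C was 34.8% in miR-19a-3p, 39.1% in miR-19b-3p and miR-20a-5p, 43.5% in miR-18a-5p, 47.8% in miR-17-5p and 57.1% in miR-92a-3p. Across the 10 arms, Spearman's rho between the G and C share and the stage difference was −0.91, and for the medium difference it was −0.54 (−0.46 in ES cells and −0.76 in ELA). Across the 256 expressed miRNAs with a sequence it was −0.19 for stage and −0.11 for the medium. These arms come from the same 4 libraries and are not independent. Among the 256 expressed miRNAs with a sequence, the 77 with a G and C share of at most 40.9% had a median stage difference of 0.15. The 75 with at least 54.5% had −0.25. The part of base composition in the differences of the miR-19 guides was not tested.

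For the arms with 2 loci, the passengers show which hairpin had reads of its own. miR-92a-1-5p made up 99.3% of the reads of both miR-92a passengers in ES serum, 99.8% in ES 2iL, then 98.9% in ELA serum and 99.3% in ELA 2iL. Nearly all miR-92a passenger reads thus carried the sequence of the chromosome 14 hairpin. The miR-19b passengers were divided more evenly. miR-19b-1-5p of chromosome 14 was at 13.3 RPM in ES serum, 10.5 in ES 2iL, and 15.3 and 30.6 in ELA from serum and 2iL. It made up 45.7% (39.2 to 52.3) of 107 and 127 reads of the chromosome 14 and X passengers in ES serum, and 74.4% (57.9 to 87.0) of 29 and 10 reads in ES 2iL. In ELA its share was 37.9% in serum (30.7 to 45.6) and 34.6% in 2iL (22.0 to 49.1). How the passenger shares relate to the origin of the guides was not measured.

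The cluster shares its seeds with miRNAs made elsewhere, and its part in each family varied between libraries. The miR-17 family (6 miRNAs with the seed AAAGUGC) summed to 6065 RPM in ES serum, 15326 RPM in ES 2iL, then 8544 in ELA serum and 14368 in ELA 2iL. miR-17-5p and miR-20a-5p gave 27.6%, 16.9%, 28.2% and 33.6% of this sum in that order. The family was mostly from miR-106b/miR-25 in ES 2iL (79.4%), where miR-93-5p stood at 11258 RPM, while in ELA 2iL the 3 clusters gave 33.6% (miR-17/92), 27.4% (miR-106a/miR-363) and 39.0% (miR-106b/miR-25). Compared with its relative miR-106a-5p, miR-17-5p had 1.55 reads per read in ES serum (1.49 to 1.61), 5.39 in ES 2iL (4.99 to 5.83), then 0.806 in ELA serum (0.777 to 0.836) and 1.27 in ELA 2iL (1.17 to 1.37). In the miR-18 family miR-18a-5p gave 43.5% in ES serum, 78.9% in ES 2iL, and 39.8% and 56.7% in ELA from serum and 2iL, the rest being miR-18b-5p. In both families the ES 2iL library had the smallest contribution of miR-106a/miR-363.

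The miR-19 family consists of miR-19a-3p and miR-19b-3p alone and summed to 2368 RPM in ES serum, 6172 RPM in ES 2iL, then 4747 in ELA serum and 23607 in ELA 2iL. In ELA 2iL it exceeded the whole miR-17 family. The miR-92 family (6 miRNAs with the seed AUUGCAC) summed to 101028, 94515, 91443 and 123173 RPM in the same order. Of these, miR-92a-3p made up 83.4%, 79.0%, 78.6% and 87.2%. miR-25-3p of miR-106b/miR-25, the next in ES serum at 8707 RPM, was at 10675 in ES 2iL, and 9174 and 9180 in ELA from serum and 2iL.

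**Figure D4:**
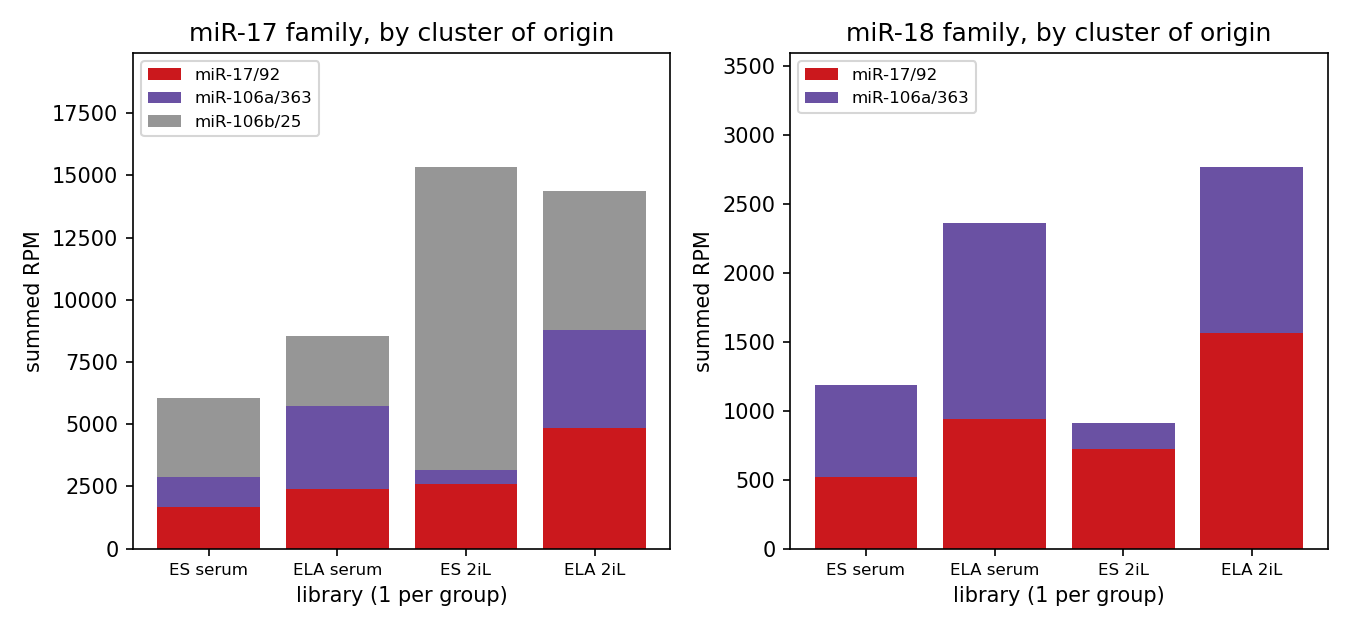
Summed RPM of the miR-17 family (left, 6 miRNAs) and the miR-18 family (right, 2 miRNAs) in each library, stacked by cluster of origin, with no error bars as each group is 1 library. The miR-17/92 part of the miR-17 family is 16.9% in ES 2iL and 33.6% in ELA 2iL.

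The 3 related clusters did not move alike. Of the 10 arms specific to miR-106a/miR-363, 7 were expressed, all 7 were higher in ELA over both media and 6 by at least 1 (median log2 difference 1.86), against 47% and 11.6% of all expressed miRNAs. Within serum, 6 of the 7 were higher in ELA (50% of expressed miRNAs) and 4 by at least 1 (8.61%), with a median of 1.04. Within 2iL all 7 were higher by at least 1 (18.9%), with a median of 2.63. The summed share of the 10 arms was 0.661% in ES serum, 0.227% in ES 2iL, then 1.35% in ELA serum and 1.12% in ELA 2iL. This gave an ELA over ES ratio of 2.04 in serum (2.02 to 2.07) and 4.94 in 2iL (4.77 to 5.12). For the medium averaged over both stages, 6 of these 7 arms were lower in 2iL (median −0.49), where 9 of 10 miR-17/92 arms and 65.2% of all expressed miRNAs were higher. The summed 2iL over serum ratio in ES cells was 0.343 for miR-106a/miR-363 (0.334 to 0.352) against 1.21 for the single-locus arms of miR-17/92 (1.19 to 1.23). The latter depended on the scaling, at 0.861 under TMM, 0.919 under DESeq2 size factors and 0.997 when totals left out the 5 most abundant miRNAs, so no direction is given for it. The miR-106a/miR-363 ratio was 0.244, 0.260 and 0.283 under the same 3 scalings, and the order of both clusters does not depend on the scaling. The lower values of miR-106a/miR-363 in 2iL were mainly those of ES cells, where 6 of 7 arms were lower under all 4 scalings (median −1.22 in RPM, 62.9% of all expressed miRNAs higher). In ELA only 3 of 7 were lower and 4 higher (median 0.23, 65.6% of all expressed miRNAs higher), miR-106a-5p and miR-20b-5p among the latter, each with a ratio of 1.18. The summed ELA ratio was still 0.829 (0.808 to 0.851), with miR-363-3p, its most abundant arm in ELA, at 0.628. With TMM and DESeq2 size factors the ELA median was −0.12 and −0.13, and 5 of 7 arms were lower. The 6 arms of miR-106b/miR-25 had a median of −0.18 for stage and 0.87 for the medium, and their summed ELA over ES ratio was 1.01 in serum (0.999 to 1.02) and 0.651 in 2iL (0.637 to 0.666). With TMM that stage median was 0.00 and with DESeq2 size factors 0.03, and the medium median fell to 0.46 and 0.50. For miR-106a/miR-363 the medium median became −0.91 and −0.87 under these scalings, while under all 4 scalings 7 of 7 arms stayed higher in ELA over both media and 6 of 7 lower in 2iL over both stages. In both media the stage ratio of the summed single-locus arms of miR-17/92 lay between those of its relatives, and all 3 clusters were read from the same libraries. Over the 19 relatives by cluster or seed, 16 were expressed, 10 of them were higher in ELA (47% of all expressed miRNAs) and 7 by at least 1 (11.6%), with a median of 0.51 for stage and 0.04 for the medium, where all expressed miRNAs had −0.08 and 0.42.

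By the distance between centred log2(RPM + 1) profiles over the 4 libraries, 5 miRNAs outside the cluster were most like its summed single-locus arms. These were miR-494-3p (distance 0.35), miR-221-3p (0.39), miR-376c-3p (0.39), miR-450b-5p (0.43) and miR-542-3p (0.43), and each had its highest level in ELA 2iL. miR-494-3p, for example, was at 87.4 RPM in ES serum, 140.2 in ES 2iL, and 136 and 335 in ELA from serum and 2iL. Among the members, miR-20a-5p was nearest to the sum (0.27), followed by miR-18a-5p (0.57) and miR-17-5p (0.59). miR-19a-3p (1.77) and miR-18a-3p (2.02) were farthest and ranked 163 and 198 among the 302 expressed miRNAs. With 4 points a profile, such likeness describes these libraries only.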

How the data were processed

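Small RNA was sequenced (TruSeq Small RNA kit) from 4 libraries, 1 per group. The authors trimmed reads with Trimmomatic after CASAVA 1.8, mapped them to mm9 with Bowtie, and used featureCounts with miRBase release 20. They deposited RPM values, which are shares of miRNA reads and not amounts per cell. Other versions, mismatch settings and how reads with several loci were treated are not given in the sources used here; the last bears on miR-19b-3p and miR-92a-3p. Titles, source names and column names gave the groups. The description field exchanges ES 2iL and ELA serum, under which stage and medium contrasts would change places. By the titles, the summed primed epiblast markers were higher and the pluripotent markers lower in ELA than in ES cells in both media, and with the exchange both directions would turn in both media. The paper reports miR-302/miR-367 members up-regulated and miR-290/miR-295 members down-regulated from ES to ELA, as in earlier literature. Those are the directions under the titles, although the paper's own values come from these same libraries. The marker values were not used for grouping. No column of values was left out (0).

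Every value was a whole multiple of 1 read (100%, tolerance 0.01 reads), so reads were recovered: 8056984 in ES serum, 2767016 in ES 2iL, then 4309257 in ELA serum and 587363 in ELA 2iL, a depth ratio of 13.7. Stage (ELA minus ES) and medium (2iL minus serum) were tested in limma 3.58.1 (R 4.3.3) on log2(RPM + 1) with both as additive terms, for 599 miRNAs (10 or more reads in 2 or more libraries), with two-sided p-values and Benjamini-Hochberg adjustment over all of them at a threshold of 0.05. The pseudocount of 1 RPM understates differences of low miRNAs. Each miRNA has 1 residual degree of freedom (3.79 prior), so p-values rest on the departure of 4 libraries from additivity and not on a spread between replicates. edgeR 4.0.16 (quasi-likelihood) and DESeq2 1.42.0 on recovered reads, other scalings, a pseudocount of 0.5 and no filter were alternatives. Leaving out ELA 2iL or miR-92a-3p was chosen after seeing the data. The fits were tested on simulated data with a stage effect only. At the edgeR dispersion of these data (0.16), limma recovered 149 and edgeR 134 of 200 changes of 2 on the log2 scale. False calls numbered 5 and 2. The simulation held no medium effect and no departure from additivity, so it cannot show how the fits perform on these libraries. Ratios between libraries have exact (Clopper-Pearson) and shares Wilson 95% intervals (scipy 1.17.1). The 302 miRNAs called expressed had a log2(RPM + 1) of 5 or more on average, and differences of at least 1 on the log2 scale were counted.

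Named miRNAs are the 10 arms, miR-19a-5p and miR-19b-1-5p, 19 relatives by cluster or seed, the 5 outside miRNAs with the nearest profile (Euclidean distance), and single markers from the cell type lists. miR-9-5p and miR-133a-3p, and the markers set beside the latter, were singled out among these after their values were seen. Members and lists were chosen with earlier results of these data known.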

Additional observations from a re-analysis of the deposited data

Results flagged for a closer look

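In 5 cases an arm lay on opposite sides of 0 in both media or at both stages, each time as 1 library against 1 library, so this contrast was not tested. Of all expressed miRNAs, 10.9% were lower in ELA in serum and higher in 2iL, as both miR-92a arms were. For the medium, 62.9% of expressed miRNAs were higher in 2iL in ES cells and 65.6% in ELA, but only 52% at both stages. Opposite signs were thus not particular to these arms. For miR-92a-3p, the stage difference was −0.23 on the log2 scale in serum and 0.53 in 2iL, 0.76 apart, and its medium difference was −0.18 in ES cells and 0.58 in ELA, again 0.76 apart because the same 4 values enter. miR-92a-1-5p had stage differences of −0.42 in serum and 0.98 in 2iL, and medium differences of −0.38 in ES cells and 1.02 in ELA, 1.40 apart in both cases. For miR-20a-3p, the medium difference was −0.48 in ES cells and 0.73 in ELA, 1.22 apart. In each case ELA 2iL, the shallowest library, held the highest value, and its part in the differences was not tested.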

How the results depend on the processing

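For the stage, limma called 0 arms (0% of the 599 miRNAs), as did a pseudocount of 0.5, TMM, DESeq2 size factors and edgeR (6.51% called). The shares of all miRNAs called under the first 3 of these alternatives were not counted. With TMM some were called, such as the relative miR-106a-5p (limma adjusted p = 0.0312). Leaving out miR-19b-3p and miR-92a-3p was not a new fit, so its count of 0 followed from the first and adds nothing. Without the filter on low counts and with totals without the 5 most abundant miRNAs 1 arm was called (miR-19a-3p), and 2 by DESeq2 (miR-19a-3p and miR-19b-3p), where 8.24%, 14.9% and 8.35% of all miRNAs tested were called. For the medium, the call count was 0 with limma, 2 without the filter (the miR-19 guides), and 1 (miR-19a-3p) with totals without the 5 most abundant, with edgeR and with DESeq2, against 10.8% of all miRNAs without the filter and 18.2%, 10.7% and 13.4% under the other 3. The median stage difference of 0.71 became 0.89 with TMM and edgeR, 0.93 with DESeq2 size factors and DESeq2, and 0.80 with totals without the 5 most abundant. The median medium difference of 0.69 became 0.27 with TMM and edgeR, 0.31 with DESeq2 size factors and DESeq2, and 0.57 with totals without the 5 most abundant. Without ELA 2iL these medians were 0.44 and 0.44. The medium difference turned for miR-20a-3p (−0.29 with TMM, −0.25 with DESeq2 size factors, −0.30 with edgeR, −0.26 with DESeq2, −0.48 without ELA 2iL), miR-92a-3p (−0.22, −0.18, −0.22, −0.18 and −0.18 in that order) and miR-92a-1-5p (−0.098, −0.058, −0.099, −0.058 and −0.38). Without ELA 2iL the stage differences of miR-92a-3p and miR-92a-1-5p were −0.23 and −0.42. In 119 of the other single-arm values under the same alternatives the direction and the side of the threshold were kept, and in 9 a call was gained.

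The share ratios of the 10 arms also moved. With TMM, DESeq2 size factors, totals without the 5 most abundant, without miR-19b-3p and miR-92a-3p, and without miR-92a-3p, the ELA over ES ratio was 0.964, 1.02, 0.851, 1.13 and 1.37 in serum (0.895 in RPM) and 1.95, 1.92, 1.95, 2.56 and 2.91 in 2iL (1.64). The 2iL over serum ratio was 0.670, 0.715, 0.775, 1.21 and 1.56 in ES cells (0.941) and 1.35, 1.34, 1.77, 2.75 and 3.32 in ELA (1.72). The 5 most abundant include miR-92a-3p itself. The cause of these shifts was not tested, beyond the arms or libraries each alternative leaves out. No paired analysis was possible because each group has 1 library and the labels carry no replicate numbers, and the additive fit already compares ELA with ES cells of the same medium. At the depth of ELA 2iL miR-17-3p, miR-18a-3p and miR-20a-3p rest on 110 to 127 reads, miR-19a-5p on 21 and miR-19b-1-5p on 18.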
